A study of Homo sapiens with 8 samples.

Results

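The 39 HOX cluster genes were followed in 4 HEK293-derived lines, which express green fluorescent protein (GFP), or GFP fused to HuR, TIA1 or TIAR, from a tetracycline-inducible cassette. The members are all non-control probes whose gene name on the array is HOX, a cluster letter from A to D and a number. This rule found 45 of the 50599 probes, for 39 of 36337 gene names, 11 in HOXA, 10 in HOXB, 9 in HOXC and 9 in HOXD. Each line was profiled on 2 human 1-colour arrays, 8 in all on 1 slide, with RNA taken 3 days after tetracycline was added. The lines were made with the Flp-In T-REx system, in which Flp recombinase places each construct at the same site of the host genome, and all 4 lines carry GFP. Each protein is thus represented by 1 line. HuR and the TIA proteins bind AU- and U-rich stretches of RNA. HuR is known for stabilising its targets, and TIA1 and TIAR for acting in splicing and for restraining translation.

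HOX genes encode transcription factors that bind DNA through the homeodomain and give cells along the head-to-tail axis their positional identity. They lie in 4 clusters, HOXA on chromosome 7, HOXB on chromosome 17, HOXC on chromosome 12 and HOXD on chromosome 2, and the number in the name gives the paralogue group, from group 1 at the anterior end to group 13 at the posterior end. In the embryo the clusters open progressively, with retinoic acid acting on the anterior genes, Polycomb complexes keeping silent genes shut and trithorax complexes keeping active genes on. HOX proteins bind DNA together with PBX and MEIS cofactors, and HEK293 cells come from embryonic kidney, an organ in which several posterior HOX genes act.

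Because paralogues resemble each other in sequence, the probes were first compared among themselves. Each of the 984 pairs of probes for different HOX genes was aligned without gaps, over at least 36 of the 60 bases. The closest pair, HOXB2 and HOXC10, was identical at 29 of 39 overlapping bases (74.4%), with a longest identical run of 10. The next pair, HOXC5 and HOXD8, was identical at 28 of 45 (62.2%), and all other pairs were at most 59.5% identical. Both pairs are printed because they are the probes most alike, and because HOXD8 was among the genes that differed between the lines. Capitals mark the bases that are identical within a pair. Positions are those of the array's annotation on hg19.
HOXB2 (A_33_P3271273, chr17:46620897-46620956, minus strand): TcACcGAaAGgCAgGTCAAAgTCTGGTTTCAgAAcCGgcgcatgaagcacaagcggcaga
HOXC10 (A_24_P218805, chr12:54383100-54383159, plus strand): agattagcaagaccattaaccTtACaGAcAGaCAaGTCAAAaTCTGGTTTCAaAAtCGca
HOXC5 (A_23_P162355, chr12:54428108-54428167, plus strand): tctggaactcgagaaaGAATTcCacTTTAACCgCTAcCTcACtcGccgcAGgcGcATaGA
HOXD8 (A_23_P210164, chr2:176996109-176996168, plus strand): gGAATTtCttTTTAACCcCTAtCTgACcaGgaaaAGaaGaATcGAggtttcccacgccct

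Levels are given as the log2 of the scanner's processed signal minus the 75th percentile of that array, so that 0 is the signal of a probe at the 75th percentile. A level of 1 probe is compared across arrays, never with another probe. Well above background is the scanner software's own flag for a spot brighter than its local background. Of the 6 genes with 2 probes each, the brighter tested probe stands for the gene. The 2 arrays of a line were labelled as independent biological replicates.

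The first GFP array stood apart from the other 7 before any comparison was made. The flag was set for 86% of its probes and for 53.2 to 58.5% on the others, and its local background averaged 83.2 intensity units where theirs averaged 35.7 to 41.5. Over the 33 HOX genes that were well above background on all 8 arrays, the median absolute difference between the 2 arrays of a line was 0.33 log2 for GFP, 0.08 for HuR, 0.15 for TIA1 and 0.12 for TIAR. The GFP arrays differed by 2-fold or more at 4 of these genes, by up to 2.1 log2 at HOXA7. TIAL1, the gene that encodes TIAR, checked the label of that line, with levels of 4.87 and 4.98 on the TIAR arrays and 1.63 to 2.52 on the other 6. Its second probe did not rise there, at −4.12 and −3.85 against −4.36 to −3.45 elsewhere. The ELAVL1 probe, for the gene of HuR, read 0.33 and 0.42 in the HuR line and 1.09 and 0.91 in GFP. Of the TIA1 probes, A_24_P405430 read −0.94 and −1 in the TIA1 line and −0.05 and 0.17 in GFP. Neither gene was raised in its own line. Whether these probes lie within the constructs is not given in the sources used here, so they do not check the labels of the HuR and TIA1 lines, and a TIA1 or HuR line below means the line labelled so. The source name of the second TIA1 sample reads GFP-TIA2, while its title and genotype read GFP-TIA1. The chosen probes for 6 markers of HEK293 cells, PAX2, LHX1, VIM, NEFM, NEFL and INA, were well above background on every array with the exception of 1 marker on the second GFP array, and summed to 80.6 to 121 times the 75th percentile signal. VIM, with levels of 6.06 to 6.8, made up most of each sum, and NEFM was dim at −4.96 to −3.76. Of 9 markers of blood, endothelium, liver, astrocytes and mature kidney, 3 to 8 were well above background on an array. Their summed level was 3.28 on the first GFP array and 0.328 on the second. It was 0.329 and 0.371 in HuR, 0.627 and 0.644 in TIA1 and 0.467 and 0.496 in TIAR, so it was higher on the 4 TIA arrays than on the HuR arrays, as the HOX median was. Of the defining markers, GFAP and PECAM1 each reached the flag on a single array for the chosen probe. The part of these markers in the HOX results was not tested. The GFP and TIA1 arrays filled one row of the slide and the HuR and TIAR arrays the other, so of the 6 comparisons only TIA1 with GFP and TIAR with HuR lie within a row. In the other 4, row and line cannot be told apart.

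Most HOX genes gave a signal well above background in these cells. On all 8 arrays 33 of 39 genes had the flag, beside 18595 of all 36337 gene names. By cluster they were 10 of 11 in HOXA, 9 of 10 in HOXB, 7 of 9 in HOXC and 7 of 9 in HOXD. The flag alone does not establish expression, since PTPRC, CDH5 and UMOD, markers of other cell types, also had it on 8 arrays. By position, the flag was set throughout for 6 of 8 genes of groups 1 to 3, 14 of 15 of groups 4 to 8 and 13 of 16 of groups 9 to 13. Counting both arrays of a line, 33 genes passed in GFP and 34 in each of HuR, TIA1 and TIAR.

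**Figure D1:**
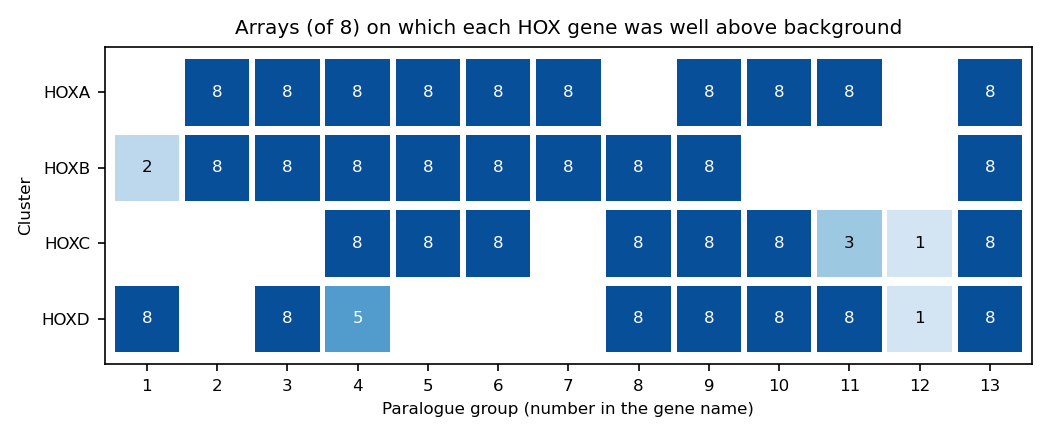
Number of arrays, of 8, on which each HOX gene was well above background, by cluster (vertical axis) and paralogue group (horizontal axis). Blank positions have no gene on the array or are not reported here, and 33 genes show 8.

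Among the genes outside this set, HOXC12 and HOXD12 passed on the first GFP array alone. HOXC12 is the clearest case, with a level of −2.26 on that array and −8.07 to −6.63 on the other 7. HOXC11, a posterior gene, passed on both HuR arrays at −5.64 and −5.45 and on 1 TIA1 array at −5.17. Its HuR level was at least 1.18-fold that in TIAR, with an adjusted p of 0.2 in limma. HOXD4 passed on 5 arrays, including both TIA1 arrays at −5.48 and −4.39, and ranged from −6.59 to −2.84 with the lines overlapping.

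HOXB1, which patterns a single segment of the embryonic hindbrain, was well above background only in the TIAR line. Its level was −5.3 and −5.08 in TIAR, against −7.84 and −7.41 in GFP, −8.16 and −8.25 in HuR and −8.03 and −7.28 in TIA1. Both TIAR arrays lay above all 6 others, which carried no flag. Since the other lines give only a limit, the TIAR level was at least 1.77-fold that in HuR (limma, adjusted p = 0.0036) and at least 1.23-fold that in TIA1 (limma, adjusted p = 0.034). HOXB1 entered these tests only through the line where it was high, so the p-values are no independent support, and the TIA1 comparison lost its call under several settings, among them each array left out. Each bound sets the dim line at the lowest signal called well above background on its arrays. Both bounds are under 2-fold, so a difference of 2-fold or more rests on signals without the flag. With the authors' values the log2 fold change over HuR was 0.65, and the HuR comparison lost its call too.

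The TIA1 line was first compared with the HuR line. Differences are between the lines and are not shown to be changes made by either protein. A gene was called where it differed by 2-fold or more and limma's p, adjusted over every probe tested, was under 0.05. Of 35 HOX genes tested, 4 were higher in TIA1 and 0 were lower, against 8.46% higher and 4.74% lower over all genes. At an unadjusted p under 0.05, 23 of the 35 passed, 21 of them higher, beside 52.5% of all genes. The called genes were HOXA6, HOXB3, HOXD1 and HOXD8, which belong to paralogue groups 1 to 8. The share called is near that of all genes and is no result about HOX genes as a group.

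HOXA6, a central HOX gene expressed in the trunk of the embryo, gave the largest fold change. The brighter probe (A_33_P3377519, chr7:27185116-27185175, hg19, minus strand) read 1.43 and 0.6 in HuR, 2.94 and 3.01 in TIA1, 2.67 and 2.55 in TIAR and 2.52 and 2.81 in GFP. Both HuR arrays lay below the other 6, which overlapped one another between GFP and TIAR. The log2 fold change was 1.96 ± 0.3 (SE, 2 arrays per line) for TIA1 over HuR (limma, adjusted p = 0.012) and 1.6 ± 0.3 for TIAR over HuR (limma, adjusted p = 0.026). A second probe in the same transcript (A_21_P0000199, chr7:27185287-27185346) gave 1.92 ± 0.25 and 1.42 ± 0.24, so both probes of the gene were called. The log2 fold change of HuR over GFP at the brighter probe was −1.65 ± 0.36 (limma, adjusted p = 0.21). The 2 HuR arrays differed by 0.84 log2 here, the largest gap between HuR replicates among the 33 genes.

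HOXD8 was higher in both TIA lines than in either control line. Its probe, printed above, read −1.34 and −0.72 in GFP, −1.14 and −1.3 in HuR, 0.17 and −0.08 in TIA1 and 0.24 and 0.21 in TIAR. All 4 TIA arrays lay above all 4 GFP and HuR arrays. The log2 fold change over HuR was 1.27 ± 0.13 in TIA1 (limma, adjusted p = 0.0055) and 1.44 ± 0.11 in TIAR (limma, adjusted p = 0.0053). Over GFP it was 1.08 ± 0.3 and 1.25 ± 0.29, and neither passed (limma, adjusted p = 0.17 and 0.22).

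HOXD1, the most anterior gene of its cluster, was likewise called in both TIA lines (A_23_P120243, chr2:177055372-177055431, hg19, plus strand). It read −3.47 and −3.49 in HuR, −2.84 and −2.5 in GFP, −1.84 and −2.08 in TIA1 and −1.92 and −1.93 in TIAR. The lines fell in 3 levels, with HuR lowest, GFP between and the TIA lines overlapping each other at the top. The log2 fold change over HuR was 1.52 ± 0.12 in TIA1 (limma, adjusted p = 0.0034) and 1.56 ± 0.09 in TIAR (limma, adjusted p = 0.0041). Between TIAR and TIA1 the difference was 0.03 log2, with a 95% interval from −0.32 to 0.39. With the authors' values the fold changes over HuR were 0.94 and 0.92 log2, under the 2-fold threshold in both TIA lines.

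HOXB3, which acts in the hindbrain, read −0.63 and −0.67 in HuR, −0.35 and −0.22 in GFP, 0.5 and 0.41 in TIA1 and 0.11 and 0.18 in TIAR (A_23_P316511, chr17:46627302-46627361, hg19, minus strand). No 2 lines overlapped at this gene. TIA1 was 1.11 ± 0.1 log2 above HuR (limma, adjusted p = 0.0039). TIAR was 0.8 ± 0.1 log2 above HuR with an adjusted p of 0.011 in limma, which is under the 2-fold threshold. Against GFP its adjusted p did not pass in either TIA line.

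A pair of genes passed the p threshold in TIA1 and fell just short of 2-fold. HOXA5, known from lung development, read 2.85 and 2.79 in HuR and 3.9 and 3.71 in TIA1, a log2 fold change of 0.98 ± 0.11 (limma, adjusted p = 0.0064). In TIAR it read 2.9 and 3.1, which was 0.18 ± 0.12 above HuR and overlapped GFP. HOXB6 read 3.56 and 3.59 in HuR, 3.42 and 3.75 in GFP, 4.53 and 4.56 in TIA1 and 4.41 and 4.46 in TIAR. Its log2 fold change over HuR was 0.97 ± 0.09 in TIA1 (limma, adjusted p = 0.0043) and 0.86 ± 0.09 in TIAR (limma, adjusted p = 0.0088). Dropping the fold threshold, 20 HOX genes had an adjusted p under 0.05 for TIA1 over HuR, beside 41.6% of all genes, with 19 of them higher, and the exception was HOXB13 at −0.37.

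**Figure D2:**
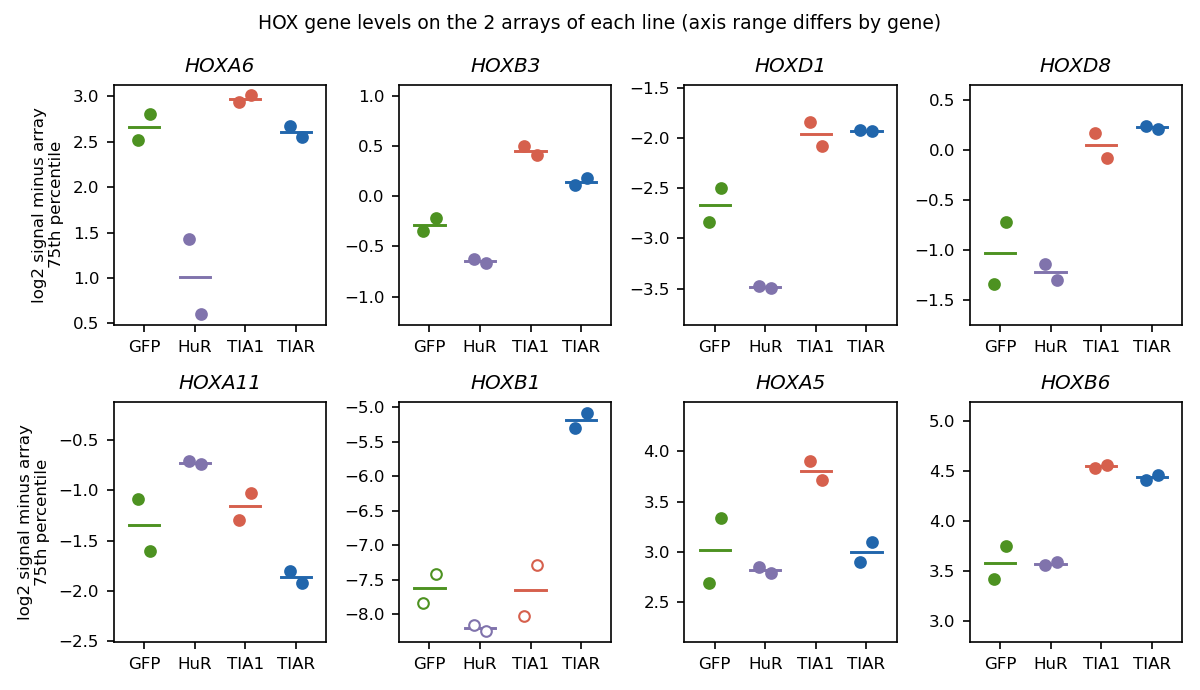
log2 signal minus the array's 75th percentile (vertical axis) on the 2 arrays of each line (horizontal axis) for 8 HOX genes. Points are arrays, lines are means of 2, open points mark lines that were not well above background on both arrays, and HOXD1 and HOXD8 show all 4 TIA arrays above the GFP and HuR arrays.

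In TIAR against HuR, 4 of 35 HOX genes were higher (HOXA6, HOXB1, HOXD1 and HOXD8) and 1 was lower, against 7.4% higher and 2.83% lower over all genes. HOXB1 met the 2-fold rule only through HuR signals that carried no flag, since its bound was 1.77-fold. At an unadjusted p under 0.05, 18 HOX genes passed, beside 45.5% of all genes, and at an adjusted p under 0.05 with no fold threshold 10 did, beside 30.9%. This comparison shares the HuR arrays with the one above, so its values are a second reading against the same control. The lower gene was HOXA11, a posterior gene needed for the forearm and the kidney (A_33_P3264528, chr7:27220776-27220835, hg19, minus strand). It read −0.71 and −0.74 in HuR, −1.08 and −1.6 in GFP, −1.29 and −1.02 in TIA1 and −1.8 and −1.92 in TIAR. TIAR was lowest and HuR highest, and GFP and TIA1 overlapped between them. The log2 fold change of TIAR over HuR was −1.13 ± 0.1 (limma, adjusted p = 0.0067), and that of TIA1 over HuR was −0.43 ± 0.13 (limma, adjusted p = 0.056). The calls of TIAR over HuR were lost without single arrays. Without the first HuR array no gene of the array was called in limma, and without the second HuR array 1 HOX gene, HOXB1, was. HOXA6 was also lost without either TIAR array (limma, adjusted p = 0.071 and 0.073).

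Across the 33 genes on all 8 arrays, the median log2 fold change of TIA1 over HuR was 0.45, beside 0.09 for all 18595 genes on all 8 arrays. Both TIA1 arrays lay above both HuR arrays at 25 of the 33 genes (44.9% of all genes) and below at 3 (32.8%). For TIAR over HuR the median was 0.26 beside 0.05, with 21 genes above (40.9%) and 6 below (32.6%). These counts take the genes as they are, without a test of the list.

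HOXD was the cluster in which both arrays lay above both HuR arrays at every gene on all 8 arrays. This held at 7 of 7 genes in TIA1 (44.9% of all genes) and 7 of 7 in TIAR (40.9%). The HOXD medians were 0.49 and 0.39 log2. These counts use 1 probe per gene. The second HOXD9 probe (A_33_P3333238) gave 0.41 in TIA1 and 0.14 in TIAR, where its arrays overlapped those of HuR, and the second HOXD3 probe (A_32_P211117), which was not above background on every array, gave 0.57 and 0.86. Besides HOXD1 and HOXD8, the fold changes of HOXD3, HOXD9, HOXD10, HOXD11 and HOXD13 ran from 0.32 to 0.53 in TIA1 and from 0.23 to 0.42 in TIAR. HOXD10 had an adjusted p of 0.02 in TIA1 and 0.045 in TIAR by limma, with log2 fold changes of 0.49 and 0.42. HOXD13, which patterns digits, read 1.89 and 1.82 in HuR, 2.29 and 2.16 in TIA1, 2.09 and 2.08 in TIAR and 1.71 and 2.16 in GFP.

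In HOXA, both arrays lay above both HuR arrays at 9 of 10 genes in TIA1 (44.9% of all genes) and 6 of 10 in TIAR (40.9%). The HOXA medians were 0.55 and 0.21. HOXA3 had 0.67 ± 0.14 in TIA1 (limma, adjusted p = 0.025) and 0.26 ± 0.15 in TIAR. HOXA13, which acts in the distal limb and the urogenital tract, had 0.82 ± 0.17 (limma, adjusted p = 0.025) and 0.61 ± 0.13 (limma, adjusted p = 0.036). HOXA9, a gene of blood progenitors, had 0.45 and 0.37, and its second probe gave 0.47 and 0.41. HOXA10 had 0.5 and 0.23 on the probe used. Its other probe gave 0.26 and −0.07, so the sign in TIAR depended on the probe. HOXA4 had 0.32 and −0.03, and HOXA2 had 0.13 and −0.06. HOXA7, with 0.59 and 0.19, read −1.9 and 0.2 in GFP, −0.29 and −0.44 in HuR, −0.24 and 0.7 in TIA1 and −0.39 and 0.05 in TIAR, and the spread within the GFP line covered the other lines but for 1 TIA1 array.

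In TIA1 over HuR the 9 HOXB genes divided by position. From HOXB2 to HOXB6 the fold changes of TIA1 over HuR ran from 0.38 to 1.11. Both TIA1 arrays lay above both HuR arrays at 5 of 5 genes (44.9% of all genes), and HOXB5 had 0.66 ± 0.13 (limma, adjusted p = 0.022). HOXB4 had 0.38 ± 0.11 in TIA1 and 0.27 ± 0.1 in TIAR. In TIAR over HuR, HOXB2 to HOXB6 ran from −0.11 at HOXB5 to 0.86 at HOXB6. HOXB7, HOXB8, HOXB9 and HOXB13 ran from −0.37 to 0.06 in TIA1 and from −0.31 to 0.35 in TIAR, where the ranges of the anterior and posterior genes overlapped. HOXB9, a gene of the thorax, read 3.7 and 3.27 in HuR, 3.04 and 3.31 in TIA1, 3.55 and 4.11 in TIAR and 3.47 and 3.94 in GFP. HOXB8 read −3.99 and −2.76 in TIA1, a gap of 1.23 log2 between replicates, against −3.48 and −3.38 in HuR. HOXB13, a gene of the tail bud and the prostate, read 0 and −0.02 in HuR, 0.1 and 0.21 in GFP, −0.46 and −0.31 in TIA1 and −0.47 and −0.17 in TIAR. All 4 TIA arrays lay below the 4 control arrays there, at −0.37 ± 0.1 in TIA1 (limma, adjusted p = 0.047) and −0.31 ± 0.14 in TIAR (limma, adjusted p = 0.16). For HOXB2, the probe in the homeobox printed above gave −0.03 and −0.38 in TIA1 and TIAR, where the brighter probe gave 0.42 and 0.22.

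In HOXC the genes nearer the anterior end also had the larger values in TIA1. HOXC4, HOXC5 and HOXC6, which lie side by side, had 0.89 ± 0.13, 0.82 ± 0.09 and 0.77 ± 0.11 log2 in TIA1 over HuR, with adjusted p of 0.011, 0.0058 and 0.0099 in limma. In TIAR they had 0.53, 0.24 and 0.42, of which HOXC6 passed at an adjusted p of 0.042 in limma. HOXC8, HOXC9, HOXC10 and HOXC13 ran from −0.16 to 0.31 in TIA1 and from −0.32 to 0.39 in TIAR. HOXC13, known from hair follicles, read 0.67 and 0.72 in HuR, 0.48 and 0.59 in TIA1, 0.42 and 0.33 in TIAR and 0.42 and 0.57 in GFP. HOXC10 read −1.47 and −1.63 in HuR, −1.66 and −1.58 in TIA1, −1.17 and −1.16 in TIAR and −1.33 and −1.57 in GFP, with TIAR above all other arrays. HOXC4 and HOXC5 share a start site in RefSeq, so they are not fully separate readings.

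Read along the clusters, the median for TIA1 over HuR was 0.67 over the 20 genes of groups 1 to 8 and 0.32 over the 13 genes of groups 9 to 13. Both TIA1 arrays were above both HuR arrays at 17 of the 20 and at 8 of the 13, and below at 0 of the 20 and 3 of the 13. Over all genes the shares were 44.9% above and 32.8% below. In TIAR the medians were 0.25 and 0.35, in the opposite order. Pearson's correlations within the clusters, given next, were negative in TIAR as in TIA1, so the medians alone do not show a turned order by position. Pearson's correlation of the TIA1 fold change with the paralogue number was −0.13 over 10 genes of HOXA, −0.74 over 9 of HOXB, −0.92 over 7 of HOXC and −0.6 over 7 of HOXD. The genes share the same 4 arrays and neighbouring genes can share transcripts, so these coefficients are descriptions. For TIAR over HuR they were −0.09, −0.49, −0.73 and −0.55. Spearman's coefficients for HOXA were 0.02 in TIA1 and 0.26 in TIAR, so the sign in HOXA depended on the measure. In the other clusters they were negative in both lines.

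**Figure D3:**
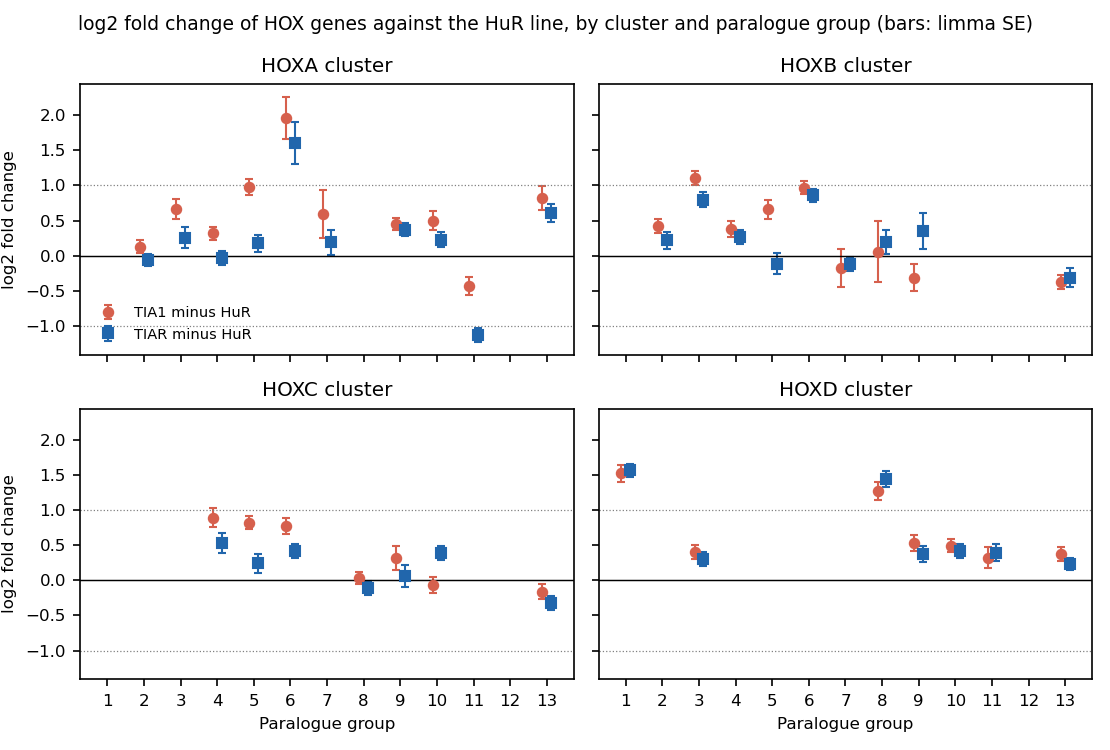
log2 fold change over the HuR line (vertical axis) by paralogue group (horizontal axis) in each cluster, for genes on all 8 arrays. Circles are TIA1, squares TIAR, bars the limma SE, and dotted lines 2-fold; HOXC4 to HOXC6 stand above HOXC8 to HOXC13 in TIA1, and all HOXD points are above 0.

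TIAR and TIA1 compared directly gave 1 called HOX gene, HOXB1, of 35 tested, and 0 lower, against 1.34% higher and 1.03% lower over all genes. This call was lost with the replicate number as a block (limma, adjusted p = 0.082), with no filter (limma, adjusted p = 0.23) and without each array in turn (limma, adjusted p = 0.071 to 0.13). At an unadjusted p under 0.05 in limma 11 HOX genes passed, beside 23.4% of all genes, with 3 of them higher in TIAR. The median over the 33 genes was −0.16 beside −0.03 for all genes. Both TIAR arrays lay above both TIA1 arrays at 3 genes (26% of all genes) and below at 20 (30.4%), 8 of them among the 10 genes of HOXA. HOXA5 had −0.8 ± 0.14, HOXB5 −0.77 ± 0.16 and HOXA11 −0.7 ± 0.14, with adjusted p of 0.062, 0.082 and 0.079 in limma. HOXB9 had 0.65 ± 0.23 and HOXC10 0.46 ± 0.11 in the other direction, with adjusted p of 0.19 and 0.1.

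Against the GFP line, limma called 0 HOX genes in TIA1, TIAR and HuR, and the share over all genes was 0% in each. At an unadjusted p under 0.05 limma passed 12 of 34 HOX genes in TIA1, 5 in TIAR and 3 in HuR, beside 21.5%, 16.1% and 16.9% of all genes. The median for TIA1 over GFP was 0.47 beside 0.04, with 21 of 33 genes above (33.3%) and 3 below (24.5%). For TIAR over GFP it was 0.21 beside 0.02, with 14 above (30.1%) and 4 below (23.8%), and under quantile normalization the HOX median relative to all genes was −0.04. For HuR over GFP it was −0.16 beside 0.01, with 7 above (30.5%) and 13 below (28.5%), and it became 0.01 without the second GFP array. Without the first GFP array these medians were 0.38, 0.04 and −0.24.

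Both TIA lines were also set against both control lines at once. All 4 TIA arrays lay above all 4 GFP and HuR arrays at 11 of 33 HOX genes (14.5% of all genes) and below at 1, HOXB13 (10%). The 11 were HOXA3, HOXA10, HOXB3, HOXB4, HOXB6, HOXC6, HOXD1, HOXD3, HOXD8, HOXD9 and HOXD10, and leaving out the first GFP array gave the same 11 and the same 1, where the shares over all genes were 19.8% and 17%. The list uses 1 probe per gene, and HOXA10, HOXD3 and HOXD9 overlapped the control arrays on their other probes. On that of HOXA10 the second GFP array read 2.54, above the TIA arrays at 1.87 to 2.28. On that of HOXD9 the second HuR array read −2.12, above both TIAR arrays. For TIA1 alone the counts were 20 above (24.7% of all genes) and 1 below (16.9%), and for TIAR alone 13 above (20.6%) and 4 below (15%).

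**Figure D4:**
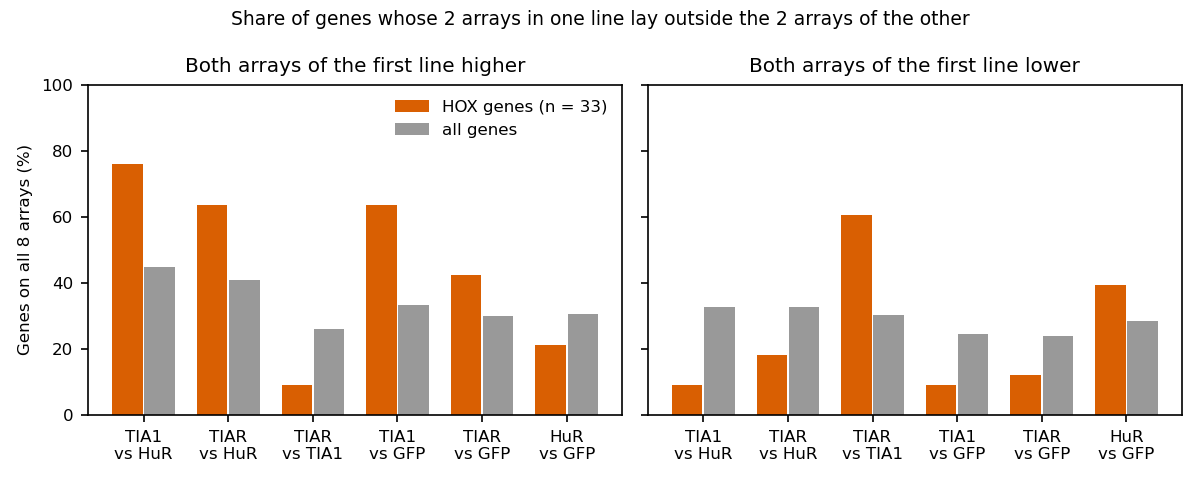
Share of the 33 HOX genes (orange) and of all 18595 genes (grey) on all 8 arrays for which both arrays of the first line lay above (left) or below (right) both arrays of the second, in percent, for 6 comparisons. The HOX share is 75.8% for TIA1 above HuR, beside 44.9%, and 60.6% for TIAR below TIA1, beside 30.4%.

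Promoters of 4 called genes are shown because HOX and PBX proteins act on HOX promoters. RefSeq's table (GRCh38.p14, 250 bases before to 50 after the start) held 27 entries for 20 of the 39 genes, 7 of them for HOXA3. Capitals mark TAAT, the core bound by homeodomains, and TGATNNAT, a site of HOX with PBX, on either strand. A match is a stretch of letters, not evidence of binding.
HOXA6 (chr7:27147725-27148024, minus strand): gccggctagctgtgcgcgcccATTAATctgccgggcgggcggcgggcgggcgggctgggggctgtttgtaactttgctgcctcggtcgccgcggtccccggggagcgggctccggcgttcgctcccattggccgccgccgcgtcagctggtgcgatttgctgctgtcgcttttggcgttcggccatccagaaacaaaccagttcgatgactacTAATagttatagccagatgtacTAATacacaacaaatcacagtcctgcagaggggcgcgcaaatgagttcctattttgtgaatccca
HOXB1 (chr17:48530962-48531261, minus strand): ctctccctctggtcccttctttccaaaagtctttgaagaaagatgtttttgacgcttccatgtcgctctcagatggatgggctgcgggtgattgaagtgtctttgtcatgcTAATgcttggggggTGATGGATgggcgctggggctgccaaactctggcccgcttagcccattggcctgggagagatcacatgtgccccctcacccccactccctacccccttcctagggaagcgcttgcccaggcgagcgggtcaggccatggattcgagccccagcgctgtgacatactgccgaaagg
HOXD1 (chr2:176188418-176188717, plus strand): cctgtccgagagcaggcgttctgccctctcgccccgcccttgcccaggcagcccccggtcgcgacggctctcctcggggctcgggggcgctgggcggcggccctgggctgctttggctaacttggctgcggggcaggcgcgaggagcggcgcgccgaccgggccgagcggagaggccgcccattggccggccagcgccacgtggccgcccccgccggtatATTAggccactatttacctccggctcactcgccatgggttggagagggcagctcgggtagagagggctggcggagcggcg
HOXD8 (chr2:176129455-176129754, plus strand): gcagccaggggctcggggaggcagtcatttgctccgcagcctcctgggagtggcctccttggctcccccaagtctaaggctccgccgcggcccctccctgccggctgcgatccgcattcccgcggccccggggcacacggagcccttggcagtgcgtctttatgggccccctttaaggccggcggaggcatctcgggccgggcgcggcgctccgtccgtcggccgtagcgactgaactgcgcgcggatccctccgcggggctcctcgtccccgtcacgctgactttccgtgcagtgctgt

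HOXB3 has no entry in the table, and the entry of HOXA11, with 1 match to TAAT, is not printed. TAAT occurred in 21 of 27 HOX entries, those of 16 of the 20 genes, and in 50.2% of all 35116 promoters. HOXA6 held 4 matches, HOXB1 and HOXD1 held 1 each and HOXD8 held 0. TGATNNAT occurred in 3 of 27 entries, of HOXA2, HOXB1 and HOXD11, and in 7.4% of all promoters. AGGTCA, the unit bound by nuclear receptors such as those for retinoic acid, was found on neither strand in the 27 entries and in 13.8% of all promoters. HOX entries had a median of 22 CpG dinucleotides, beside 14 over all promoters.

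Among the 12 cofactor genes with TALE homeodomains and their partners that were tested, 3 were called higher in TIA1 than in HuR and 0 lower, and 2 were called higher in TIAR and 0 lower. Over all genes, 8.46% were higher and 4.74% lower in TIA1, and 7.4% and 2.83% in TIAR. Values are given for MEIS3 and PBXIP1, which were called in both TIA lines. MEIS3, a MEIS-family partner of HOX proteins, read −3.73 and −3.41 in HuR, −2.02 and −2.09 in TIA1 and −2.3 and −2.33 in TIAR. Its log2 fold change over HuR was 1.52 ± 0.14 in TIA1 (limma, adjusted p = 0.0044) and 1.26 ± 0.14 in TIAR (limma, adjusted p = 0.0098). PBXIP1, a PBX-interacting protein that inhibits PBX binding to DNA, had 1.12 ± 0.11 in TIA1 and 1.12 ± 0.12 in TIAR, with adjusted p of 0.0048 and 0.0092 in limma. The list's median was 0.34 in TIA1 over HuR and 0.18 in TIAR, beside 0.08 and 0.06 over all genes tested.

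Of 14 tested genes known to act upstream of HOX genes or to belong to the related ParaHox group, 3 were called higher in each TIA line than in HuR (8.46% of all genes in TIA1 and 7.4% in TIAR) and 0 lower. RARA and RARB encode retinoic acid receptors. RARA read −0.18 and −0.33 in HuR, 1.62 and 1.23 in TIA1, 1.33 and 1.32 in TIAR and 0.7 and 1.05 in GFP, with log2 fold changes over HuR of 1.68 ± 0.17 and 1.57 ± 0.1 (limma, adjusted p = 0.0049 in both). A second RARA probe (A_23_P207842) averaged −2.27 in HuR, −1.62 in TIA1, −1.84 in TIAR and −1.33 in GFP. On that probe the TIA lines were above HuR by less than 2-fold, and GFP had the highest mean. RARB had 1.2 ± 0.21 in TIA1 (limma, adjusted p = 0.015) and 1.39 ± 0.1 in TIAR (limma, adjusted p = 0.0053). T, the mesoderm factor brachyury, read −5.77 and −5.93 in HuR, −4.1 and −4.15 in TIA1 and −4.08 and −4.16 in TIAR, with 1.72 ± 0.11 and 1.73 ± 0.11 (limma, adjusted p = 0.0026 and 0.0046). Its GFP arrays read −1.3 and −4.9, above and below the 4 TIA arrays.

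Of 30 Polycomb genes, 1 was called lower in TIA1 than in HuR (4.74% of all genes) and 0 higher (8.46%). This was SCMH1, a Polycomb protein, at −1.05 ± 0.09 (limma, adjusted p = 0.0038), with levels of 0.34 and 0.35 in HuR and −0.71 and −0.7 in TIA1. In TIAR its log2 fold change was −0.92 ± 0.17 (limma, adjusted p = 0.024). Of 20 trithorax-group genes and H3K27 demethylases, limma called 0 in each of the 6 comparisons, where 2 to 8 had an unadjusted p under 0.05, beside 16.1 to 52.5% of all genes. Their median log2 fold changes ran from −0.13 for TIAR over TIA1 to 0.52 for TIA1 over GFP.

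Genes next to the clusters and transcripts within them gave a few more. Of 14 flanking genes tested, SKAP1, an adaptor gene beside HOXB, was called higher in TIA1 than in HuR at 1.03 ± 0.2 (limma, adjusted p = 0.021). NFE2, beside HOXC, was called higher in TIAR than in HuR at 1.13 ± 0.14 (limma, adjusted p = 0.011). The GFP arrays of SKAP1 read −0.15 and −4.01, above and below the TIA1 arrays at −3.39 and −3.13. Those of NFE2 read −2.88 and −4.05, above and below the TIAR arrays at −3.91 and −3.63. Over all genes 8.46% were called higher in TIA1 and 7.4% in TIAR, so the share called is near that of all genes. The medians of the 14 were −0.04 in TIA1 and 0.16 in TIAR over HuR, beside 0.08 and 0.06 over all genes tested. Of 9 non-coding transcripts tested, FLJ12825 was called in TIAR over HuR, where no HuR array was well above background and the bound was at least 1.98-fold (limma, adjusted p = 0.0083). It entered the test only through TIAR, so this p is no independent support. In this comparison 7.4% of all genes were called higher. HOTAIR and HOTAIRM1 are given although they were not called, and were chosen after their values were seen. HOTAIR, the long non-coding RNA transcribed from HOXC, had 9 probes on all 8 arrays. For TIAR over TIA1 they ran from −0.71 to −0.06, and limma called none of them, the smallest adjusted p being 0.051. HOTAIRM1, from the anterior end of HOXA, had 0.43 ± 0.15 in TIA1 and 0.07 ± 0.19 in TIAR over HuR. It read 1.73 and 1.79 in GFP and 2.63 to 3.32 on the other 6 arrays, with log2 fold changes over GFP of 1.01 ± 0.17 in HuR, 1.43 ± 0.2 in TIA1 and 1.08 ± 0.24 in TIAR, none of which passed (limma, adjusted p = 0.19, 0.1 and 0.21).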

How the data were processed

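Total RNA was hybridised to Agilent SurePrint G3 Human 8x60K v2 arrays. The authors deposited the scanner output of Feature Extraction 10.7.3.1, with a background-subtracted, detrended intensity per spot and probe positions on hg19. They also deposited log2 values, used as an alternative. The normalization of these is not stated, but shared distributions show quantile normalization, of 6 arrays together and of both TIAR arrays together. Their medians were 7.23 or 7.24 on 6 arrays and 7.08 on both TIAR arrays.

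Intensities were put on the log2 scale, the 75th percentile of each array (1205 to 1668 units) was subtracted, outlier spots were dropped (3 HOX spots were outliers or missing) and spots of a probe averaged. The limma package 3.58.1 (R 4.3.3) was fitted on the 4 arrays of a pair of lines, over probes for which 1 line or both had the flag on each of its arrays, with Benjamini-Hochberg adjustment. Precision is limited by having 2 arrays per line. The code was tested on simulated data. HOX genes called, or detected on both arrays of a line, are given by value, as are members of other lists that were called or check a label. A gene with several probes is given by its brightest tested probe. The members and lists were chosen with earlier results of these data known. Alternatives covered background correction, normalization, the filter, the fit, the replicate block and single arrays left out. Some genes are not reported here.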

Additional observations from a re-analysis of the deposited data

Results flagged for a closer look

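HOXA2 had log2 fold changes of opposite sign over HuR, 0.13 in TIA1 and −0.06 in TIAR, with both TIA1 arrays above and both TIAR arrays below the HuR arrays. Neither passed (limma, adjusted p = 0.31 and 0.64). The difference between them was not tested beyond the direct comparison of TIAR with TIA1, where limma's adjusted p was 0.37.

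HOXB1 had an adjusted p of 0.034 in limma for TIAR over TIA1. Its TIA1 level was not well above background, so the size is known only as at least 1.23-fold, and it entered the test only through TIAR. The call was lost under normexp, the authors' values, no filter, the filter on all 4 arrays, the replicate block and each array left out.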

How the results depend on the processing

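The number of HOX genes called in TIA1 over HuR (4) was 3 to 5 under normexp, quantile normalization, the authors' values, both other filters, both fits of all 8 arrays and the count by any probe. Leaving out arrays gave 2 to 6, with 2 without the second HuR array (HOXA6 and HOXD1), and dropping the fold threshold gave 20. For TIAR over HuR (5) leaving out arrays gave 0 to 4, and dropping the fold threshold gave 10. With the authors' values the called genes were HOXA5, HOXA6, HOXB6 and HOXD8 in TIA1 and HOXA6, HOXA11, HOXB6 and HOXD8 in TIAR. With no filter HOXA6 was lost in both (limma, adjusted p = 0.051 and 0.084). For TIAR over TIA1 the single call, HOXB1, became 0 under normexp, the authors' values, no filter, the filter on all 4 arrays and each array left out (0 to 0). Against GFP, 1 fit of all 8 arrays did call HOX genes. They were 2 in TIA1 (HOXD8 and HOXD9), 2 in TIAR (HOXB1 and HOXD8) and 1 in HuR (HOXA6). The same fit called 1874, 1268 and 865 of all genes. Adding array weights gave 0 HOX genes, beside 497, 108 and 61 of all genes. Leaving out arrays there gave 0 to 7 in TIA1, 0 to 9 in TIAR and 0 to 6 in HuR, the highest each time without the second GFP array, with HOXC12 and HOXD12 among the calls. Without the second GFP array, the GFP line rested on its first array alone, which stood apart from the others. Genes across the whole array were then called in large numbers, so these counts are no result about HOX genes. The causes were not tested.

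The replicate number as a block gave 5 calls in TIA1 over HuR (HOXD4 added), 5 in TIAR over HuR, 0 in TIAR over TIA1 and 0 against GFP. The correlation of same-numbered deviations ran from −0.09 to 0.18 over 24959 probes, so the numbers are not taken to pair the arrays.

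The medians were recomputed under settings chosen after the data were seen. The median of HuR over GFP (−0.16) was −0.24 without the first GFP array and reversed to 0.01 without the second. It was −0.08 under quantile normalization, −0.09 with the authors' values and −0.06 without the second HuR array. Over GFP, the TIA1 median (0.47) was 0.29 under normexp, and the TIAR median (0.21) was 0.04 without the first GFP array and 0.35 without the second. Quantile normalization moved the median of all genes from 0.04 to 0.21 for TIA1 over GFP, from 0.02 to 0.17 for TIAR over GFP and from 0.01 to 0.16 for HuR over GFP. HOX medians then lay 0.26 above it, at −0.04 and at −0.25 relative to it. Against HuR, the HOX median ran from 0.42 to 0.53 in TIA1 and from 0.24 to 0.42 in TIAR.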
